A study of Mus musculus with 18 samples.

Results

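Cdh1, Cdh2, Cdh11 and Pcdh19, 4 of the 22997 nuclear genes named in the count tables, were followed cell by cell through mouse gastrulation. The rows were taken by gene symbol. Cadherins are calcium-dependent adhesion proteins that join neighbouring cells of like kind through their extracellular repeats and hold on to the actin cytoskeleton through catenins. Cdh1 (E-cadherin) keeps the pluripotent epiblast a closed epithelium. When epiblast cells leave through the primitive streak to become mesoderm, they are known to lower Cdh1 under the repressor Snai1 and to take up Cdh2 (N-cadherin), the cadherin of migrating mesoderm and later of neural tissue and somites. Cdh11 is a cadherin of loose mesenchyme, and Pcdh19 is a protocadherin known to act in a complex with N-cadherin.

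All cells came from untreated wild-type C57BL/6 embryos, taken at E6.75 or E7.5 (days of embryonic development). The E6.75 cells were picked by hand from embryos dissociated singly after the extraembryonic part was cut away, and 6 libraries of 96 cells were made by CEL-Seq2, which counts each transcript at its 3′ end. The E7.5 cells were sorted by flow cytometry from pools of 1 or 2 litters cut just under the chorion, so that extraembryonic mesoderm was kept, and 12 libraries of 96 cells were made by mCEL-Seq2, a smaller-volume form of the method. Stage, collection and protocol therefore change together, and their parts in a difference between the stages cannot be told apart. The embryo of each cell is not given, so the library served as the replicate, and p-values measure the spread between libraries, which may be technical.

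Of 1728 barcodes, 972 held at least 2000 nuclear transcripts, 543 at E6.75 and 429 at E7.5, and these were kept. Replicate 5 of E7.5 gave no such cell. Cells with at least 0.2% of transcripts from 12 visceral endoderm markers (41 of the earlier stage, 2 of the later) or at least 0.1% from 8 extraembryonic ectoderm markers (1 and 2) were set aside, which left 501 and 425 embryonic cells. Library medians of the depth of kept cells spanned 22331 to 54686 transcripts for E6.75 and 18982 to 57139.6 for E7.5. The E6.75 libraries 2_13 and 2_14 stood apart as the deepest of their stage. They also held 15 and 11 of the 29 E6.75 cells with Mesp1 but no Foxa2 transcripts, with the other 3 in library 2_9, so each result on those cells rests on 2_13 and 2_14. By the columns each library used, 65 library pairs shared 0 of their 96 cell barcodes, 32 shared 48 and 56 shared all 96. No doublet caller was run.

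Embryonic cells were classed by which of T (Brachyury, the streak transcription factor), Mesp1 (nascent mesoderm) and Foxa2 (anterior streak, endoderm and node) had at least 1 transcript. Cells with none are called triple-negative (300 at E6.75, 116 at E7.5), cells with T alone T-only (72 and 124), cells with Mesp1 but not Foxa2 Mesp1 cells (29 and 125), cells with Foxa2 but not Mesp1 Foxa2 cells (79 and 48), and the rest held both (21 and 12). A class can miss cells whose transcript was not captured, and depth differed between classes: the median was 33627 transcripts in triple-negative and 61036 in Mesp1 cells at E6.75, and 20892 and 39912 at E7.5. Beyond repeats on thinned cells or without the deepest cells, given further on, the part of depth in the class differences was not tested. At E6.75 the summed level of 6 ectoderm and epiblast markers ran from 1580 to 2246 CPM (a gene's transcripts scaled to 1000000 nuclear transcripts of the summed cells) over the libraries' triple-negative cells, and that of 6 lateral mesoderm markers from 7.94 to 111. At E7.5 the lateral mesoderm sum in triple-negative cells ran from 31.5 to 859, so this class was no pure ectoderm, and each comparison with it was repeated against only those of its cells with a transcript of Sox2, an ectoderm gene.

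In the GENCODE M21 annotation of GRCm38, Cdh1 lies at chr8:106603351-106670246 on the plus strand and Cdh11 at chr8:102632095-102785642 on the minus strand. Cdh2 lies at chr18:16588877-16809246 and Pcdh19 at chrX:133582860-133688987, both on the minus strand. The build and strand setting of the deposited counts are not given in the sources used here. No annotated gene that overlaps a member is named in the count tables.

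Over all kept embryonic cells, the E7.5 libraries had less Cdh1 and more Cdh2, Cdh11 and Pcdh19 than those of E6.75. Levels are CPM over the sum of a library's embryonic cells, so fewer cells of a type and less RNA per cell cannot be told apart in them. Mesp1 cells were 29 of 501 cells at E6.75 and 125 of 425 at E7.5. All 4 genes passed the test, edgeR's quasi-likelihood test with Benjamini-Hochberg adjustment at 0.05, beside 39.7% of all 9963 genes tested.

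Cdh1 ran from 280 through a median of 313 to 443 CPM in the 6 libraries of E6.75, and from 65.5 through 217 to 315 in the 11 of E7.5. The highest E7.5 library lay above 4 of the 6 E6.75 libraries, and the other 10 lay under all 6. Mean Cdh1 fell from 341 ± 66.9 to 202 ± 68.4 (SD). The fitted change was -0.82 on the log2 scale (SE 0.19), past edgeR's test (adjusted p = 0.00208), a fitted fold of 1.76. Cdh2 ran from 7.10 through 11.9 to 27.9 at E6.75 and from 41.9 through 83.7 to 145 at E7.5. Every E7.5 library lay above every E6.75 library. The change was 2.51 on the log2 scale (SE 0.28, edgeR adjusted p = 4.81e-07), a 5.70-fold rise in a gene that began far below Cdh1.

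Cdh11 ran from 1.74 through 2.92 to 33.7 at E6.75 and from 31.1 through 46.3 to 148 at E7.5. Libraries 2_13 and 2_14, at 30.8 and 33.7, were near the lowest E7.5 library, and the other 4 E6.75 libraries were far under it. Cdh11 rose by 2.08 (SE 0.50, edgeR adjusted p = 0.00221), and with 2_13 and 2_14 left out by 4.37 (SE 0.44, adjusted p = 2.68e-07). Pcdh19 was almost silent at E6.75, at 0.338 through 0.909 to 4.21, and ran from 60.5 through 123 to 214 at E7.5. Its ranges were far apart, and its rise of 5.82 (SE 0.34, edgeR adjusted p = 4.46e-10), 56.4-fold, was the largest of the 4. Without 2_13 and 2_14, Cdh1 changed by -0.96, Cdh2 by 3.10 and Pcdh19 by 7.38, each still past the test. With only the 4 E6.75 libraries whose titles begin with 2, a prefix whose meaning is not stated, the changes were -0.78, 2.20, 1.63 and 5.50 in the order Cdh1, Cdh2, Cdh11, Pcdh19, and all 4 calls held.

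**Figure D1:**
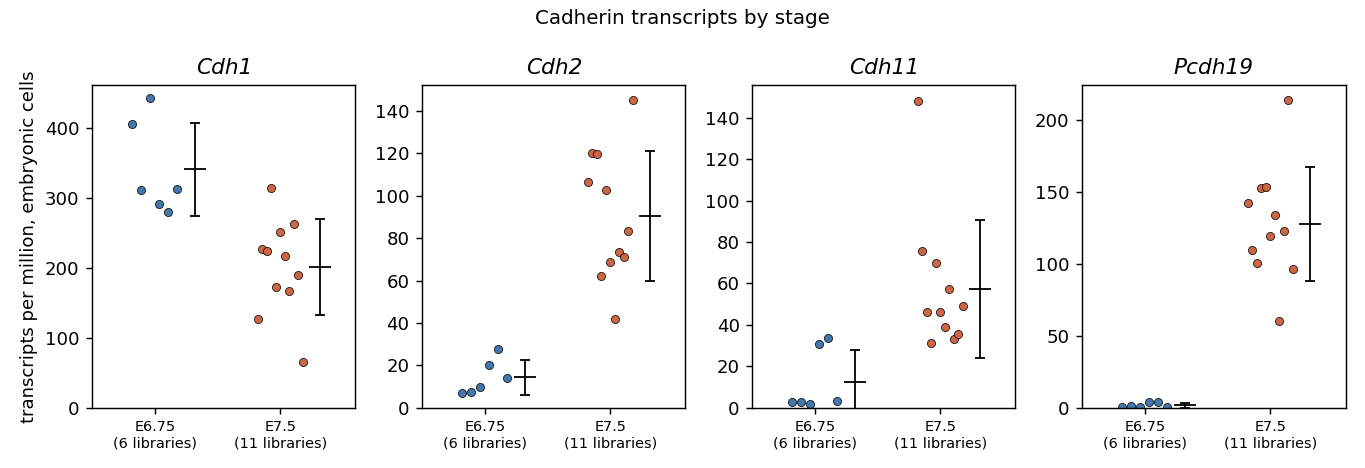
CPM (y axis, linear) of each gene in the summed embryonic cells of each library, for 6 libraries of E6.75 and 11 of E7.5; points are libraries and bars mark the mean ± SD. Cdh2 and Pcdh19 do not overlap between the stages, 1 E7.5 library lies above 4 of the 6 E6.75 libraries for Cdh1, and 2 E6.75 libraries stand apart for Cdh11.

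A promoter entry in the RefSeq table (GRCm38.p6) was at hand only for Pcdh19, the member with the largest change between stages. It is printed here because the E-box CANNTG is the core bound by Snail, Zeb and Twist proteins, whose genes are described with the members. The 250 bases before the start, chrX:133688994-133689243 on the minus strand, are 69.2% G or C and hold 1 CANNTG match, shown in capitals.
Pcdh19: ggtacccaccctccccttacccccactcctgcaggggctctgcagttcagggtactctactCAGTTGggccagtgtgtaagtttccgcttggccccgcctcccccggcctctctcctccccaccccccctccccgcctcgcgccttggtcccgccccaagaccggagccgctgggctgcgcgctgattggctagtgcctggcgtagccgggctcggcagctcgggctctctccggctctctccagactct
The stricter E-box CAGGTG, itself a CANNTG, and the T-box core TCACACC had 0 matches on either strand. In windows of the same length before the start of 32851 genes' promoters, 66.2% held a CANNTG, 17.2% a CAGGTG and 3.33% a TCACACC, so a single CANNTG is common.

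The balance of the classical pair moved with these levels. Cdh2 made up 1.72% to 9.04% of Cdh1 plus Cdh2 transcripts in the E6.75 libraries (median 3.32%) and 16.2% to 68.9% in those of E7.5 (median 30.6%). The groups did not overlap, and the mean share rose from 4.35% ± 2.92 to 32.5% ± 15.2 (SD), a difference of 28.2 percentage points (exact permutation test, two-sided p = 0.000485, n = 6 and 11). Because 3′ counting takes each transcript once, gene length does not enter the share, but the capture of each gene's 3′ end does, so the share is read only between groups.

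The same turn was seen in the share of cells with a transcript once every cell was thinned to 2000 transcripts. Cdh1 was found in 47.7% ± 7.35 of cells per library at E6.75 and 28.9% ± 11.3 at E7.5 (exact permutation test over libraries, two-sided, adjusted over the 4 genes, p = 0.00431). Cdh2 went from 2.97% to 11.3% (adjusted exact p = 0.0183), Cdh11 from 1.54% to 13.9% (0.00431) and Pcdh19 from 0.391% to 13.2% (0.000646). Unthinned, the shares were 93.9% and 71.2% for Cdh1, 31.7% and 59.0% for Cdh2, 15.8% and 50.6% for Cdh11, and 4.46% and 39.6% for Pcdh19. Where a cell thinned to 2000 needed 2 transcripts of the gene, the rise was 3.55 points for Cdh2 (adjusted exact p = 0.113). For Cdh11 it was 0.775 points (adjusted exact p = 0.423), and neither was past the test. With the 2-prefixed libraries alone, also thinned to 2000, the Cdh2 rise of 8.05 points did not pass either (adjusted exact p = 0.0623). Thinned to 10000 transcripts, Cdh1 was in 90.0% and 61.6% of cells and Cdh2 in 11.9% and 47.5%. At that depth, with any transcript counted, all 4 genes passed (adjusted exact p = 0.000242 for each).

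At E7.5 the Mesp1 cells, the nascent mesoderm, had less Cdh1 and more of the other 3 genes than triple-negative cells. Against triple-negative cells of the same 10 libraries, all 4 genes passed the test, beside 5.66% of 7333 genes. Cdh1 in Mesp1 cells ran from 25.02 through a median of 89.3 to 134 CPM (11 libraries), against 89.8 through 242 to 314 in triple-negative cells (10 libraries). It was lower in 10 of 10 libraries, a log2 difference of -1.22 (SE 0.20, edgeR adjusted p = 1.86e-05). Cdh2 in Mesp1 cells ran from 104 through 147 to 195, against 12.8 through 40.3 to 204. It was higher in 9 of 10 libraries, by 1.57 (SE 0.28, edgeR adjusted p = 0.000112). The exception was replicate 10, whose triple-negative cells held the 204. Those were 10 cells with a median depth of 4368 transcripts, against 47282.5 in the Mesp1 cells of that library.

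Pcdh19 in Mesp1 cells ran from 100.01 through 336 to 725, against 0 through 11.9 to 141 in triple-negative cells. It was higher in 10 of 10 libraries, by 3.77 (SE 0.40, edgeR adjusted p = 2.65e-09). Cdh11 ran from 50.01 through 74.9 to 137, against 4.79 through 31.8 to 125.7. It was higher in 9 of 10 libraries, by 1.07 (SE 0.30, edgeR adjusted p = 0.0196). The Cdh11 call was lost without replicate 6, 7, 11 or 12 in turn (edgeR adjusted p from 0.0548 to 0.0849) and without the library block (adjusted p = 0.098). Against the Sox2-bearing triple-negative cells alone, the changes were -1.42 for Cdh1, 2.21 for Cdh2, 1.64 for Cdh11 and 5.74 for Pcdh19.

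Foxa2 cells of E7.5, which hold definitive endoderm and node cells, had high Cdh1: it ran from 218 through 306 to 531 CPM in 8 libraries, the highest mean of the 4 main classes of this stage at 354 ± 121 (SD). Against triple-negative cells Cdh1 was higher in 7 of 8 libraries, by 0.78 (SE 0.20, edgeR adjusted p = 0.0150), beside 4.04% of genes called, a call lost without replicate 3 (0.73, adjusted p = 0.074), without the library block (0.67, adjusted p = 0.16) and against Sox2-bearing cells alone (0.57, adjusted p = 0.20). Cdh2 in Foxa2 cells ran from 21.2 through 56.9 to 170, a difference of 0.91 (SE 0.35) that did not pass (edgeR adjusted p = 0.153). It did pass against Sox2-bearing cells alone (1.47, adjusted p = 0.0228), with 2-transcript gates (1.72, adjusted p = 0.0152), with at least 5 cells per class (1.22, adjusted p = 0.0403), with no filter on low counts (0.86, adjusted p = 0.0149) and without replicate 10 (1.20, adjusted p = 0.0194). Cdh11 (-1.18, SE 0.46) and Pcdh19 (-1.602, SE 0.85) did not pass either (edgeR adjusted p = 0.160 and 0.380). Both passed with no filter (adjusted p = 0.0161 and 0.00261), Cdh11 also passed without replicate 1 (-1.86, adjusted p = 0.0344), and Pcdh19 was 0.26 against Sox2-bearing cells (adjusted p = 0.97). The levels of Pcdh19 in these cells, 0 through 6.25 to 16.1 CPM, rested on 14 transcripts.

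Set directly against each other in 8 libraries, Mesp1 and Foxa2 cells of E7.5 differed in 3 of the 4 genes, beside 7.81% of all genes. Cdh1 was 4.01-fold lower in Mesp1 cells (log2 -2.002, SE 0.21, edgeR adjusted p = 9.29e-10), lower in 8 of 8 libraries and with no overlap between the classes. Pcdh19 was higher in 8 of 8, by 5.37 (SE 0.56, edgeR adjusted p = 9.50e-10), again without overlap, and Cdh11 in 8 of 8, by 2.25 (SE 0.40, adjusted p = 8.74e-05). Cdh2 was higher in 6 of 8 libraries and its difference of 0.67 (SE 0.29) did not pass (edgeR adjusted p = 0.192). It passed with no filter (0.75, adjusted p = 0.00618) and without replicate 1 (0.99, adjusted p = 0.0345). Node markers in Foxa2 cells summed to 0 to 1072 CPM over these libraries and 5 definitive endoderm markers to 377 to 1567.

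Within the Foxa2 cells, Cdh2 was not spread evenly. Pooled over libraries, the 36 cells that also held T had Cdh2 at 114 CPM (95% exact Poisson interval 97.4 to 133, counting error only), and the 12 without T had it at 14.2 (4.61 to 33.2), from 5 transcripts in all. Cdh1 was 352 (322 to 384) and 392 (329 to 463) in the same cells. The cells of the T-bearing set came from 10 libraries and those of the other from 6, and no test was made between them. The 12 cells with T, Mesp1 and Foxa2 together at E7.5 had Cdh1 at 169, Cdh2 at 151, Cdh11 at 72.3 and Pcdh19 at 382.

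For cells with T alone, 1 of the 4 genes passed at E7.5 under some settings and 0 under the others. With all triple-negative cells as the reference, none of the 4 genes passed at E7.5 in 9 libraries, beside 0.232% of genes called by edgeR. The log2 differences were 0.23 for Cdh1 (SE 0.18, adjusted p = 0.945), 0.02 for Cdh2 (SE 0.31), 0.63 for Cdh11 (SE 0.31) and 0.71 for Pcdh19 (SE 0.51). Pcdh19 passed against Sox2-bearing triple-negative cells alone (2.62, edgeR adjusted p = 0.00903) and with each cell thinned to 5000 transcripts (1.32, adjusted p = 0.0275). Classes were called anew after that thinning, so the cells compared were not the same. At E6.75 none passed in 6 libraries, beside 0.616% of genes. There the differences were -0.17 for Cdh1 (SE 0.10), -0.35 for Cdh2 (SE 0.44), 1.11 for Cdh11 (SE 0.65) and 1.13 for Pcdh19 (SE 0.93). At an unadjusted p under 0.05, 0 of these 8 differences would have passed.

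**Figure D2:**
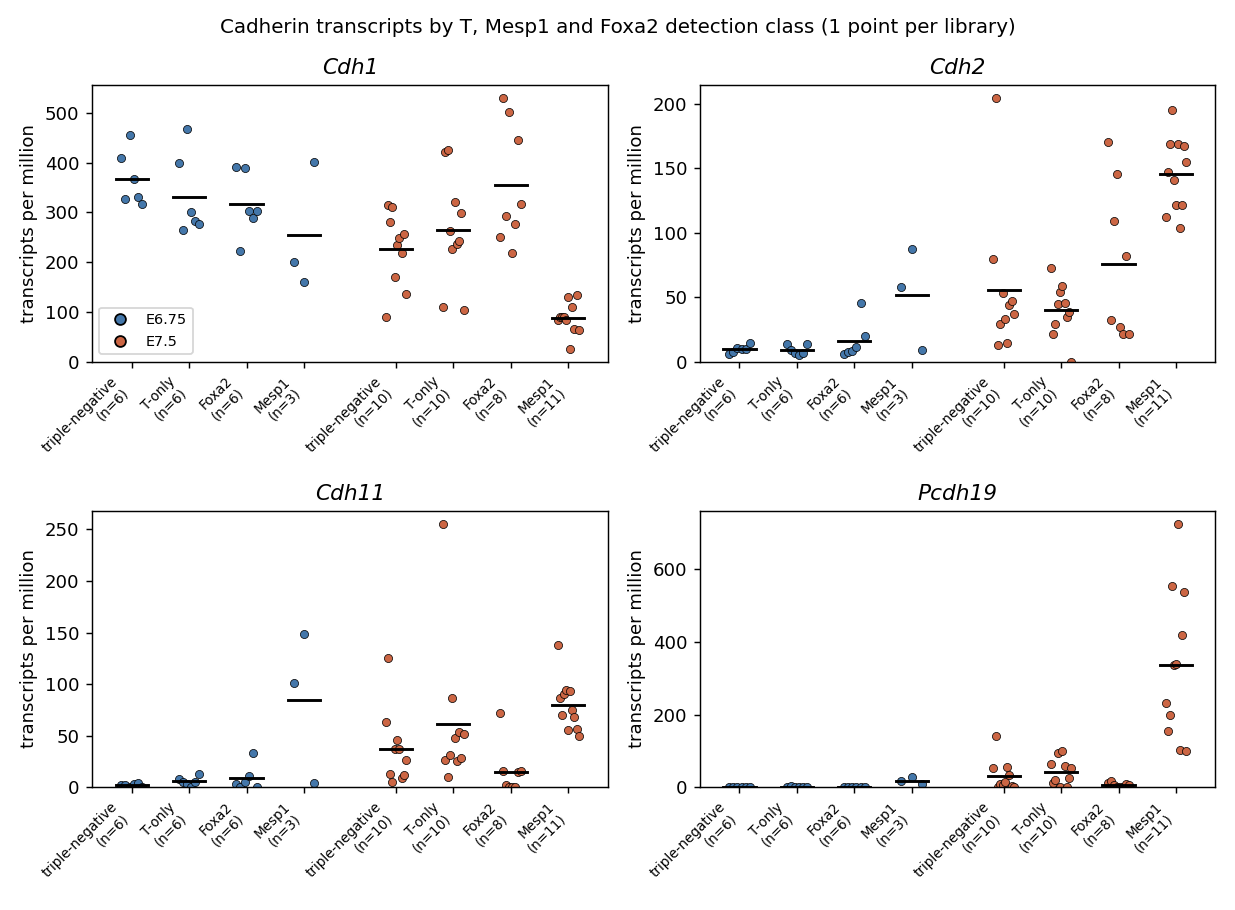
CPM (y axes, linear) of each gene in each detection class, 1 point per library with at least 3 cells of the class; short lines are means and colours are stages. Of the 4 classes plotted, Mesp1 cells of E7.5 have the lowest mean Cdh1, at 87.6, and the highest mean Pcdh19, at 336, and Foxa2 cells of E7.5 hold the highest Cdh1 mean of their stage at 354.

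At E6.75 Cdh1 stood far above the other 3 genes in triple-negative cells, and all 4 differed in Mesp1 cells. Triple-negative cells held Cdh1 at 318 through a median of 349 to 455 CPM over the 6 libraries and Cdh2 at 6.24 through 9.998 to 14.3. Cdh11 (0.499 to 4.39) and Pcdh19 (0 to 1.10) were near the limit of detection, with 24 and 6 transcripts in 300 cells. In Mesp1 cells, which only 3 libraries held in number, all 4 genes passed the test, beside 3.63% of 9097 genes.

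Cdh1 in these Mesp1 cells was 200.3 CPM in library 2_13, 160 in 2_14 and 402 in 2_9, where only 3 cells stood behind it. It was lower than in triple-negative cells in 2 of 3 libraries, a log2 difference of -0.58 (SE 0.15, edgeR adjusted p = 0.0133). The call was lost without 2_13 (-0.42, adjusted p = 0.32), without 2_14 (-0.39, adjusted p = 0.43) and without the library block (-0.64, adjusted p = 0.17), and the value was -0.91 without 2_9. Cdh2 was 57.8, 87.6 and 9.35 in the same order of libraries. The first 2 stood above all triple-negative values and the third within them, and the rise was 2.29 (SE 0.39, edgeR adjusted p = 0.000157).

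Cdh11 was 100.76, 149 and 4.68, and Pcdh19 17.2, 28.1 and 9.35. Both were higher in 3 of 3 libraries and overlapped no triple-negative library. In 2_9 they rested on 1 Cdh11 and 2 Pcdh19 transcripts, and its Cdh11 of 4.68 was just above the highest triple-negative value of 4.39. Cdh11 rose by 4.95 (SE 0.50, edgeR adjusted p = 1.09e-08) and Pcdh19 by 4.91 (SE 0.78, adjusted p = 5.72e-05), though against only 6 transcripts. The calls of Cdh2, Cdh11 and Pcdh19 held without each library in turn.

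In Foxa2 cells of E6.75, 1 of the 4 genes passed against triple-negative cells. Cdh1 (-0.22, SE 0.10), Cdh2 (0.79, SE 0.35) and Pcdh19 (-0.09, SE 1.08) did not pass, with edgeR adjusted p of 0.566, 0.551 and 0.9999. Cdh11 alone passed, beside 0.846% of genes: it ran from 0 through 4.03 to 33.2 CPM and differed by 2.14 (SE 0.55, edgeR adjusted p = 0.0471). That call was lost in DESeq2 (1.75, adjusted p = 0.868), without the library block (2.35, adjusted p = 0.189), with the 2-prefixed libraries alone (2.39, adjusted p = 0.0539) and without library 1_10, 2_12, 2_13 or 2_14 in turn (edgeR adjusted p from 0.0601 to 0.797, the last with a value of 1.42). Between Mesp1 and Foxa2 cells of E6.75, beside 1.42% of genes, Cdh11 was higher by 2.81 (SE 0.43, edgeR adjusted p = 8.04e-05), Pcdh19 by 4.996 (SE 0.84, adjusted p = 0.000298) and Cdh2 by 1.498 (SE 0.37, adjusted p = 0.0285). Cdh1, at -0.36 (SE 0.15, edgeR adjusted p = 0.355), did not pass with all libraries. It did without 2_9 (-0.66, adjusted p = 0.0017), thinned to 5000 transcripts (-2.11, adjusted p = 0.0173) and with 2-transcript gates (-1.43, adjusted p = 8.17e-05). Both the thinning, after which classes were called anew, and the stricter gates changed which cells were compared. The Cdh2 call was lost without 2_12, 2_13 or 2_14 (edgeR adjusted p from 0.0551 to 0.431) and with DESeq2 (adjusted p = 0.194), the Cdh11 call with DESeq2 (adjusted p = 0.210), and the Pcdh19 call without 2_14 (4.43, adjusted p = 0.075).

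Whether a Mesp1 cell of E6.75 also held T split it sharply. Pooled over 3 libraries, the 19 Mesp1 cells with T had Cdh1 at 125.5 CPM (95% exact Poisson interval 105 to 149), Cdh2 at 87.1 (70.3 to 107), Cdh11 at 158 (135 to 184) and Pcdh19 at 29.98 (20.5 to 42.3). The 10 without T had Cdh1 at 375 (326 to 429), Cdh2 at 15.9 (7.28 to 30.2), Cdh11 at 7.08 (1.93 to 18.1) and Pcdh19 at 1.77 (0.0448 to 9.86). The second set lay near the triple-negative levels of 370, 9.23, 2.09 and 0.522 (pooled). Median depths were 61036 and 58148 transcripts. The 18 cells with T, Mesp1 and Foxa2 together were in between, at 236, 28.6, 67.4 and 3.17. At E7.5 the split was of another kind: 108 Mesp1 cells with T had Cdh1 at 91.8 and Cdh2 at 136, 17 without T had 56.8 and 119, and Pcdh19 was 302 (286 to 319) with T and 80.3 (57.6 to 109) without. These are pooled counts with counting error only, and no test was made between them.

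Mesp1 cells had less Cdh1 and more Cdh2 and Pcdh19 at the later stage. In 11 libraries of E7.5 against 3 of E6.75, Cdh1, Cdh2 and Pcdh19 passed the test and Cdh11 did not, beside 11.3% of 6980 genes. Cdh1 went from 254 ± 130 to 87.6 ± 30.7 CPM (SD), a log2 change of -1.45 (SE 0.26, edgeR adjusted p = 0.000947), with no overlap of the groups. Cdh2 went from 51.6 ± 39.5 to 145 ± 28.5, by 1.25 (SE 0.27, adjusted p = 0.00471), and Pcdh19 from 18.2 ± 9.42 to 336 ± 205, by 3.95 (SE 0.62, adjusted p = 0.000319), both without overlap. Cdh11 was 84.7 ± 73.4 and 79.8 ± 24.7 (-0.24, SE 0.34, edgeR adjusted p = 0.723). Where a gate gene needed 2 transcripts, Cdh1 and Cdh2 no longer passed (adjusted p = 0.22 and 0.13), and Cdh11 did, at -0.99 (adjusted p = 0.0266). Without 2_14 Cdh11 was 0.27 (edgeR adjusted p = 0.776). Without 2_9, which held 3 Mesp1 cells, Cdh1 changed by -1.04 and Cdh2 by 0.95, both past the test (edgeR adjusted p = 0.0165 and 0.0203). The E6.75 side also holds the Mesp1 cells without T that lay near triple-negative levels, and their part in these changes was not tested.

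The difference between the stages in what sets Mesp1 cells apart from triple-negative cells was tested as an interaction. Cdh11 alone of the 4 passed, beside 0.193% of 8801 genes: its gap was smaller at E7.5, a difference of -3.85 on the log2 scale (SE 0.64, edgeR adjusted p = 0.000513). The mean levels behind it were 2.09 and 84.7 CPM in triple-negative and Mesp1 cells at E6.75, and 37.4 and 79.8 at E7.5. The triple-negative mean was higher at E7.5. The 84.7 includes 4.68 from 1 transcript in the 3 cells of library 2_9. Without 2_9 the stage change of Cdh11 in Mesp1 cells was -0.62 (edgeR adjusted p = 0.165). With 2-transcript gates that change was -0.99 (adjusted p = 0.0266). Against Sox2-bearing cells alone the interaction was -3.27 (adjusted p = 0.023), and with DESeq2 -3.37 (adjusted p = 0.092), which did not pass. Cdh1 (-0.65, SE 0.29, adjusted p = 0.764), Cdh2 (-0.73, SE 0.53, adjusted p = 0.956) and Pcdh19 (-0.94, SE 1.06, adjusted p = 1) did not pass.

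**Figure D3:**
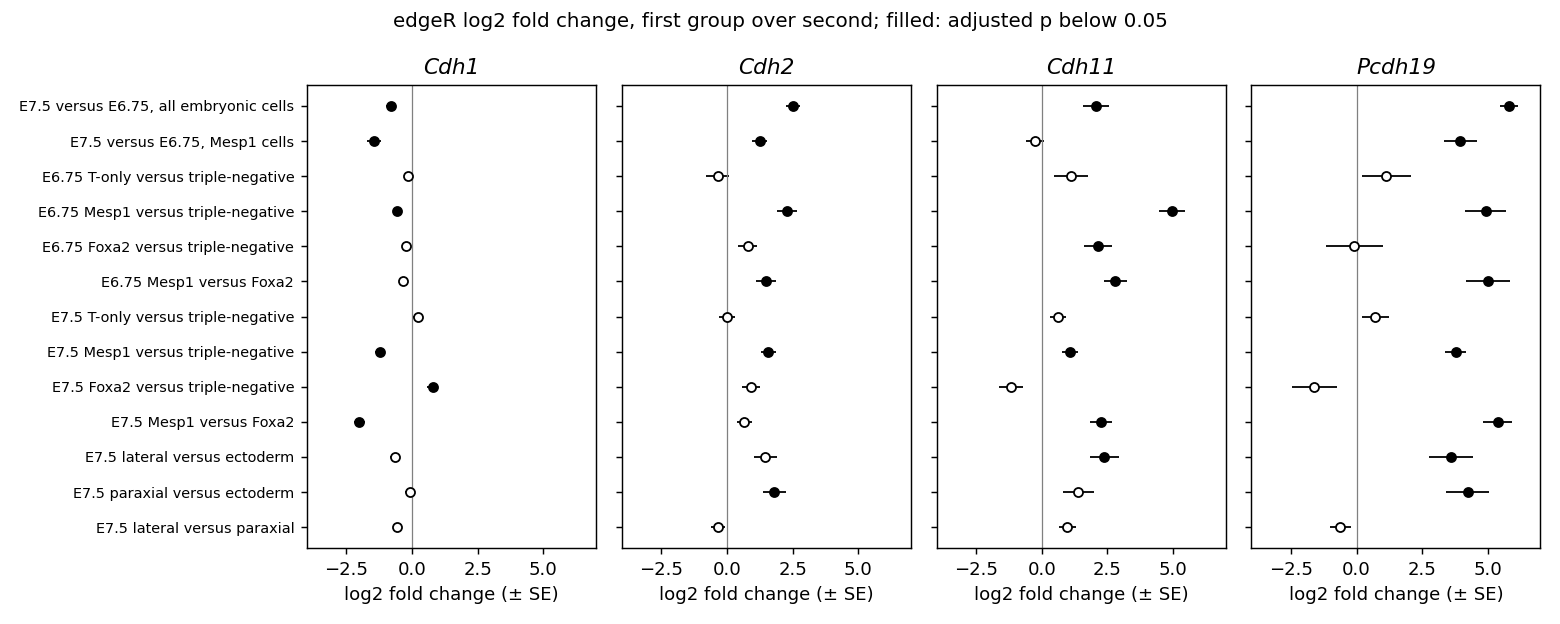
Log2 fold change ± SE from edgeR (x axis) of each gene in 13 comparisons (rows), the first-named group over the second; filled circles passed at an adjusted p of 0.05. Cdh1 lies left of 0 and the other 3 genes right of it in the rows of Mesp1 cells against triple-negative cells, and in E7.5 Foxa2 cells Cdh1 lies right of 0.

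Within libraries, the share of Cdh2 in Cdh1 plus Cdh2 followed the same classes. At E7.5 it was 62.0% ± 11.2 (SD) in Mesp1 and 19.4% ± 14.1 in triple-negative cells, higher in 10 of 10 libraries by 42.6 points (exact sign-flip permutation test, adjusted over 8 comparisons, p = 0.0156, the raw p being the smallest the test can give). Against Foxa2 cells (17.0% ± 12.3) it was higher in 8 of 8 libraries by 44.6 points (adjusted exact p = 0.0313, and 0.0625 without any of the 8). Foxa2 and triple-negative cells of E7.5 differed by -1.85 points (SD 8.23 over 8 libraries) and T-only and triple-negative cells by -3.67 points (SD 12.9 over 9), neither past the exact test (adjusted p = 0.634 for both). At E6.75 the share was 2.63% ± 0.956 in triple-negative cells and 4.99% ± 4.47 in Foxa2 cells, which did not pass (adjusted exact p = 0.333). In the 3 libraries with E6.75 Mesp1 cells it averaged 19.996%. It rose in 2_13 and 2_14 and fell by 2.05 points in 2_9, where the smallest exact p is 0.25.

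**Figure D4:**
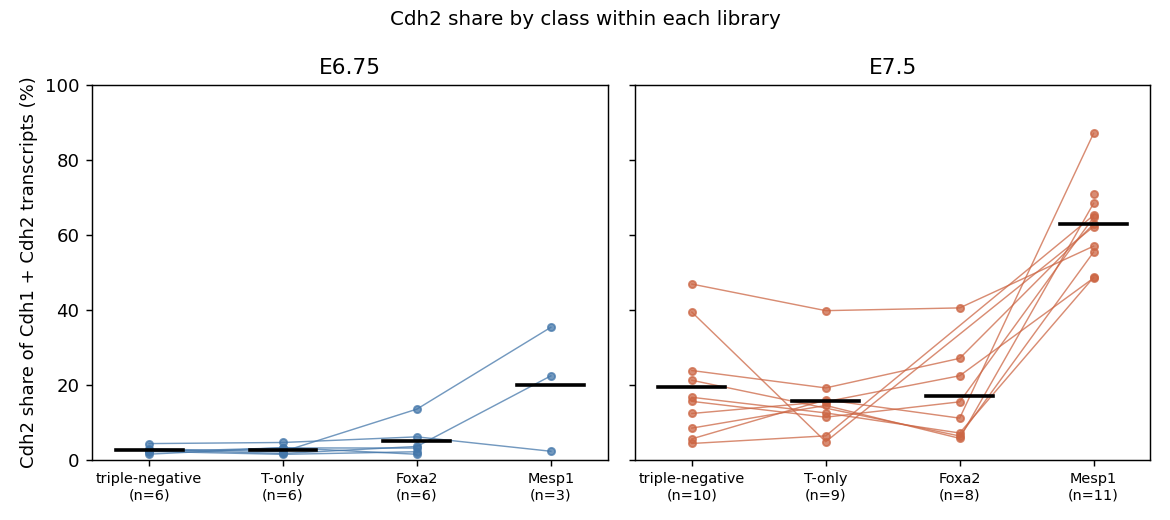
Cdh2 as a percentage of Cdh1 plus Cdh2 transcripts (y axis) in each class of each library with at least 10 such transcripts; lines join the classes of a library and black bars are means. Mesp1 cells of E7.5 run from 48.5% to 87.1%, and no library of another plotted class, at either stage, exceeds 46.9%.

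The classes were then described by how many of their cells held each transcript. With every cell thinned to 10000 transcripts, 83.8% of 229 triple-negative cells of E6.75 held Cdh1 alone, 8.73% held both genes and 0 held Cdh2 alone. By 3 counts of the total, that allows up to 1.31% of such cells with a Cdh2 but no Cdh1 transcript at this depth, for counting error only, and unthinned 1 of 300 was such a cell. Of 29 Mesp1 cells of E6.75, 55.2% held Cdh1 alone and 20.7% Cdh2 alone (95% exact binomial interval 7.99% to 39.7%). Of 112 Mesp1 cells of E7.5, 13.4% held Cdh1 alone, 20.5% both and 52.7% Cdh2 alone (43.0% to 62.2%). At this depth Foxa2 cells of E7.5 were the class in which both were found together most: 52.6% of 38 cells (35.8% to 69.0%), with 42.1% holding Cdh1 alone and 2.63% Cdh2 alone. Nearly all cells of that class with Cdh2 therefore also held Cdh1. So did nearly all cells of the class, since only 2.63% held neither gene. None of 73 Foxa2 cells of E6.75 held Cdh2 alone, which by the same 3 counts allows up to 4.11%. Unthinned, both genes were found together in 58.3% of E7.5 Foxa2 cells and 62.1% of E6.75 Mesp1 cells. In cells with both Mesp1 and Foxa2 that unthinned share was 61.9% at E6.75 and 75% at E7.5.

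The visceral endoderm, set aside from the comparisons, gave a level of Cdh2 outside the mesoderm. In the 41 marked cells of E6.75 Cdh1 was 331 ± 88.1 CPM and Cdh2 89.5 ± 37.9 (SD, n = 6 libraries), while Cdh11 was 0.993 ± 1.598. With them kept in, the Cdh2 difference of E6.75 Foxa2 cells from triple-negative cells was 1.44 and passed (adjusted p = 0.00231). Visceral endoderm marker sums in the remaining classes of that stage were 0 to 115 CPM in triple-negative, T-only, Mesp1 and Foxa2 cells, and were 134 and 297 CPM in the 2 libraries with cells of both Mesp1 and Foxa2. Their part in the Cdh2 levels was not tested.

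**Figure D5:**
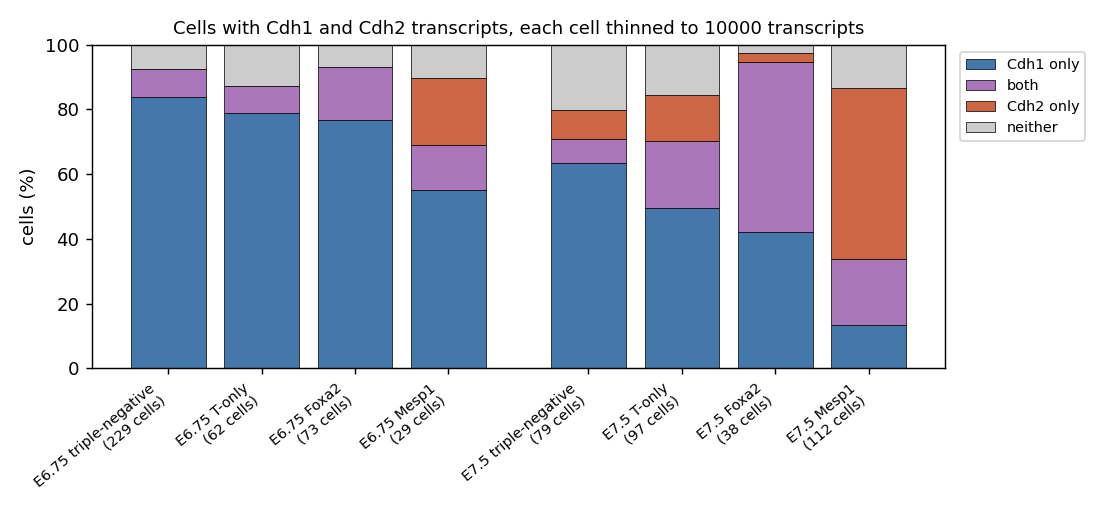
Percentage of cells (y axis) with Cdh1 transcripts only, Cdh2 only, both or neither in each class, every cell thinned to 10000 transcripts. Cells with Cdh1 only fall from 83.8% in triple-negative cells of E6.75 to 13.4% in Mesp1 cells of E7.5, and cells with both are most frequent in Foxa2 cells of E7.5.

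Across all embryonic cells, the number with both Cdh1 and Cdh2 was set beside the number that their separate rates give. At E6.75, 157 cells held both where 151 were expected library by library, and at E7.5 179 held both where 179 were expected. The mean log2 ratio of observed to expected was 0.06 (SD 0.06, n = 6 libraries; exact sign-flip test, adjusted p = 0.0625) and -0.03 (SD 0.27, n = 11; adjusted exact p = 0.803). The raw E6.75 p (exact sign-flip test, 0.03125) is the smallest its 6 libraries can give. It became 0.0625 on adjustment because the E7.5 p was larger. Cdh1 was in 471 of the 501 cells there, which left little room for a departure, so no conclusion is drawn for that stage. With cells thinned to 10000 transcripts the E7.5 ratio was -0.52 (adjusted exact p = 0.002), so at matched depth the 2 transcripts were found together less often than their rates give.

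E7.5 cells were also classed as lateral (Hand1 or Foxf1 without Tcf15 and Meox1, 173 cells), paraxial (Tcf15 or Meox1 without Hand1 and Foxf1, 35 cells) and ectoderm (Sox2 with none of these or the gate genes, 40 cells). The first 2 were not pure mesoderm by their markers. Ectoderm marker sums ran from 80.2 to 845 CPM over lateral and from 95.4 to 875 over paraxial libraries. Node marker sums ran from 0 to 1066 over paraxial libraries. Mean Cdh1 was 172 ± 73.4 CPM in lateral, 232 ± 105 in paraxial and 302 ± 58.0 in ectoderm cells (SD, n = 10, 6 and 4 libraries). Against ectoderm, in only 3 shared libraries, lateral cells had more Cdh11 (2.37, SE 0.55, higher in 3 of 3) and more Pcdh19 (3.602, SE 0.83, higher in 2 of 3), both at an edgeR adjusted p of 0.0178 beside 2.01% of genes, and both calls were lost without the library block. In replicate 12 Pcdh19 was lower in lateral cells, at 5.85 against 27.0 CPM, each from 2 transcripts. The Cdh11 call was also lost without replicate 3 or 4, and the Pcdh19 call without replicate 4 or 8 and with DESeq2 (edgeR adjusted p from 0.0697 to 0.363 without a replicate). Paraxial cells had more Pcdh19 (4.23, SE 0.81, edgeR adjusted p = 0.00687) and Cdh2 (1.80, SE 0.43, adjusted p = 0.0441), beside 0.995% of genes. The Cdh2 call was lost without any of replicates 1, 2, 3, 4, 8 and 12 in turn (edgeR adjusted p from 0.0574 to 0.377), and the Pcdh19 call without replicate 4 or 8 (adjusted p = 0.238 and 0.0623) and with DESeq2. Between lateral and paraxial cells none of the 4 passed, beside 1.33% of genes. Cdh1 was -0.57 (SE 0.16, edgeR adjusted p = 0.0911), Cdh11 0.98 (adjusted p = 0.263) and Pcdh19 -0.62 (adjusted p = 0.745). Pcdh19 passed with at least 5 cells per class (-1.32, edgeR adjusted p = 0.000385), and Cdh11 with no filter (1.09, adjusted p = 0.0142) and without replicate 3 (1.33, adjusted p = 0.0251).

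Of the partners that hold cadherins at the adherens junction, 4 of 14 tested fell between stages and 0 rose, a share no higher than the 39.7% of all genes called, with a list median of -0.21 beside 0.03 for all genes. Hook1 (-1.31), a microtubule linker, Plekha7 (-0.97), a junction scaffold, and Mllt4 (-0.61), the afadin that binds nectins, led them. In E7.5 Mesp1 against triple-negative cells (5.66% of genes called), 4 of 13 fell, led by Plekha7 (-2.20), Hook1 (-1.40) and the nectin Pvrl2 (-0.66), and against Foxa2 cells (7.81% called) 5 of 13 fell, led by Plekha7 (-2.42), Hook1 (-1.66) and the catenin Arvcf (-0.97). At E6.75 only Plekha7 (-0.98) of 14 fell in Mesp1 against triple-negative cells (3.63% called). The medians of these 3 lists were -0.02, -0.32 and -0.29, beside 0.01, 0.02 and -0.01 for all genes.

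Among the other cadherins, most of those that passed were protocadherins. Pcdh8, the paraxial protocadherin of the early mesoderm, rose by 3.16 between stages and by 3.73 in E7.5 Mesp1 cells, and Pcdh7 by 5.18 in E6.75 and 1.35 in E7.5 Mesp1 cells, each against triple-negative cells. Between stages, beside 39.7% of genes called, 4 of 11 tested rose, Pcdh18 by 1.92, and 2 fell, Pcdh1 (-0.94) and Fat1 (-0.40). Against triple-negative cells, 2 of 10 rose and 1, Pcdh1 (-1.35), fell in E6.75 Mesp1 cells (3.63% called), and 2 of 5 rose and 0 fell at E7.5 (5.66% called). The medians in these 3 comparisons were 0.62, 0.02 and 0.57 beside 0.03, -0.01 and 0.01 over all genes tested. Pcdh7, like Cdh11, had a smaller gap between Mesp1 and triple-negative cells at E7.5 (-3.77, SE 0.69, edgeR adjusted p = 0.00137).

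Most tested regulators of Cdh1 and of the epithelial state did not pass between classes. In E6.75 Mesp1 cells (3.63% of genes called) 4 of 16 rose, led by the Cdh1 repressors Snai1 (4.07), Zeb2 (3.43) and Twist1 (2.63), and the epithelial adhesion gene Epcam fell (-0.60). In E7.5 Mesp1 cells (5.66% called) 4 of 14 rose, led by Twist1 (2.95), Snai1 (1.66) and Eomes (1.597), and 2 fell, Epcam (-1.48) and the epithelial splicing factor Esrp1 (-1.33). In E7.5 Foxa2 cells (4.04% called) 3 of 14 rose, the epithelial factor Elf3 (2.30), Eomes (1.997) and Esrp1 (1.07), and 0 fell, each against triple-negative cells. Between Mesp1 and Foxa2 cells of E7.5 (7.81% called) Twist1 (3.25), Snai1 (2.16) and Fgfr1 (0.70) were higher and Elf3 (-2.96), Esrp1 (-2.39) and Epcam (-1.89) lower. Between stages (39.7% called) 8 of 17 rose, led by Zeb2 (3.18), Twist1 (2.93) and Crb2 (2.47), and 3 fell, Epcam, Grhl2 and Esrp1. The list medians were 0.17, 0.27, 0.04, 0.16 and 0.55 in the order given, beside -0.01, 0.01, -0.01, 0.02 and 0.03 over all genes.

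The genes most like each member over 50 class sums from 16 libraries were found by Pearson's r of log2(CPM + 10) less the library's mean, over 6469 genes. Cdh1 was most like Spint2 (0.91), Cldn6 (0.87), Gatsl2 (0.87), Gnai2 (0.87) and Epcam (0.85). Cdh2 was most like Ifitm1 (0.84), Adam19 (0.82), Dll3 (0.82), Fn1 (0.81) and Peg3 (0.80). Cdh11 was most like Pcdh7 (0.80), with Gas1, Pdgfra, Dlc1 and Snai1 after it. Pcdh19 was most like Dll1 (0.89), Lefty2 (0.89), Foxc2 (0.87), Pdgfra (0.86) and Laptm4b (0.86). Between members, r was -0.56 for Cdh1 with Cdh2, -0.56 with Cdh11 and -0.72 with Pcdh19, and 0.60, 0.71 and 0.53 for Cdh2 with Cdh11, Cdh2 with Pcdh19 and Cdh11 with Pcdh19. These are descriptions over sums that share libraries and depth, so no p is given.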

How the data were processed

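The authors deposited expected counts, 1 table per library with genes as rows and cell barcodes as columns, made from unique molecular identifiers. By a test of every value, each is the natural-log collision correction of a whole number of identifiers observed out of 4096, with no scaling for depth. Per the submitters' processing notes, bcl2fastq 2.17.1.14 and BWA 0.6.2-r126 were used. Counter, genome build, annotation and use of strand are not given in the sources used here. Library totals spanned 2933395 to 5493791 transcripts for E6.75 and 518343 to 2627269 for E7.5, apart from replicate 5 of E7.5 (3042), which was left out. The submitters state 1172 cells at E7.5, where the files hold 1152 used barcodes.

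Expected counts were rounded and summed per library and class of at least 3 cells (10 for all embryonic cells), scaled by TMM, filtered by filterByExpr and tested with edgeR 4.0.16 (quasi-likelihood, R 4.3.3), with Benjamini-Hochberg adjustment over all genes tested. The library was a block within a stage, since its classes share 1 library. Single values were tested with exact permutation or sign-flip tests over libraries (scipy 1.17.1), two-sided. The code was tested on simulated data. Replicate numbers are not shared between the stages. Alternatives were DESeq2 1.42.0 (size factors and test), no low-count filter, no block, no set-aside, stricter gates, a depth cap at 3 times the library median, thinning, and each library left out in turn. Intervals are 95% exact and cover counting error only. The members, and the lists of genes named from them (at most the 3 largest called changes per list and direction), were chosen with earlier results of these data known.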

Additional observations from a re-analysis of the deposited data

Results flagged for a closer look

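In 9 of 35 class groups of 4 to 10 libraries the highest library lay apart from the rest by Dixon's gap rule. The rule's rate of about 1 in 20 groups holds for independent groups of normal values. These levels are skewed, some rest on few transcripts, and the groups share libraries, so the 9 cannot be set against that rate. In triple-negative cells of E7.5, replicate 10 had Cdh2 at 204 CPM (others 12.8 to 79.3), Cdh11 at 125.7 (others 4.79 to 63.4) and Pcdh19 at 141 (others 0 to 56.2). These were 10 cells with a median depth of 4368 transcripts, and the Pcdh19 value rested on 18 transcripts in 3 of them. In replicate 1 of E7.5, Cdh11 was 255 in T-only cells (others 9.70 to 86.3) and 72.4 in Foxa2 cells (others 0 to 16.2), and the Cdh2 share in T-only cells was 39.8% (others 4.82% to 19.2%). In Foxa2 cells of E6.75, library 2_14 had Cdh2 at 45.2 (others 5.86 to 19.8) and Cdh11 at 33.2 (others 0 to 10.52). In the same class library 2_13 had Pcdh19 at 1.31, from 2 transcripts, where the others were at 0.

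The gap in Cdh11 between Mesp1 and triple-negative cells differed between the stages by -3.85 on the log2 scale, by a test of the difference itself (edgeR interaction).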

How the results depend on the processing

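For levels summed per library, the 4 members kept direction and call between the stages under every alternative run and without each library in turn. The same held for Cdh1, Cdh2 and Pcdh19 in E7.5 Mesp1 against triple-negative cells wherever a value was given. It did not hold for the share of cells with a transcript. There the Cdh2 and Cdh11 calls between the stages were lost where a cell needed more transcripts. That of Cdh2 was also lost with only part of the E6.75 libraries, as given below. Member values under alternatives other than leaving out a library kept direction and side of the threshold in 365 cases. They lost the call in 22, gained it in 16 and turned sign without a call in 12. With each library left out, 552 were kept, 27 lost the call, 6 gained it and 11 turned sign. A further 29 values had no adjusted p and were not counted. Depth limits these results: Pcdh19 at E6.75 rests on few transcripts. Thinning left fewer called genes in every comparison but E7.5 T-only cells. It also left fewer genes to test, 464 to 5002 against 6831 to 9963, and the share called did not always fall. Thinned, it was 70 of 853 against 137 of 6831 in E7.5 lateral against ectoderm. In E6.75 Mesp1 cells it was 43 of 1648 against 330 of 9097. Where no filter is named below, 18571 to 22642 genes were tested, so the counts are not shares. The cause of the changes was not tested. Classes below are against triple-negative cells unless another is named, "thinned" is to 5000 transcripts a cell, and the filter is on low counts. When thinned, shallower cells were dropped and the classes were called anew on the thinned counts. A thinned class therefore does not hold the same cells as the class of that name elsewhere.

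The stages gave 3958 called genes, but 1214 thinned. The stages in Mesp1 cells gave 786 called genes, but 16 thinned, 184 with 2-transcript gates and 333 to 833 with each library left out (changed without 2_13 and 2_9). E6.75 T-only cells gave 56 called genes, but 130 with no filter, 18 thinned, 25 with no replicate block, 25 with the 2-prefixed libraries and 31 to 57 with each library left out (changed without 1_11, 2_12 and 2_14). E6.75 Mesp1 cells gave 330 called genes, but 43 thinned, 511 with 2-transcript gates and 105 to 354 with each library left out (changed without 2_14). E6.75 Foxa2 cells gave 77 called genes, but 47 with DESeq2, 186 with no filter, 539 with no cell set aside, 19 thinned, 34 with no replicate block and 40 to 91 with each library left out (changed without 2_12). E6.75 Mesp1 against Foxa2 gave 129 called genes, but 79 with DESeq2, 202 with no filter, 305 with no cell set aside, 15 thinned, 210 with 2-transcript gates, 68 with no replicate block and 61 to 136 with each library left out (changed without 2_13 and 2_14). E7.5 T-only cells gave 17 called genes, but 103 with no filter, 37 thinned, 48 with 2-transcript gates, 35 with 5 cells per class, 48 against Sox2-bearing cells, 6 with no replicate block and 12 to 35 with each library left out (changed without 10). E7.5 Mesp1 cells gave 415 called genes, but 49 thinned. E7.5 Foxa2 cells gave 296 called genes, but 528 with no filter, 16 thinned, 172 with 2-transcript gates and 146 to 339 with each library left out (changed without 3, 4 and 7). E7.5 Mesp1 against Foxa2 gave 573 called genes, but 894 with no filter and 23 thinned. The interaction gave 17 called genes, but 94 with no filter, 3 thinned, 32 with 2-transcript gates and 8 to 27 with each library left out (changed without 2_14 and 1). E7.5 lateral against ectoderm gave 137 called genes, but 232 with no filter, 70 thinned and 55 to 142 with each library left out (changed without 4). E7.5 paraxial against ectoderm gave 68 called genes, but 182 with no filter, 22 thinned, 40 with 5 cells per class and 21 to 99 with each library left out (changed without 3, 4 and 8). E7.5 lateral against paraxial gave 91 called genes, but 45 with DESeq2, 225 with no filter, 14 thinned, 58 with no replicate block and 50 to 103 with each library left out (changed without 2 and 4).

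Cdh1 in the stages in Mesp1 cells (-1.45) was -0.86 with 2-transcript gates (not past the test). Cdh2 in the stages in Mesp1 cells (1.25) was 0.67 with 2-transcript gates (not past the test). Cdh11 in the stages in Mesp1 cells (-0.24) was -0.99 with 2-transcript gates (past the test) and -0.62 to 0.27 with each library left out (changed without 2_14). Cdh11 in E6.75 T-only cells (1.11) was -0.054 with 2-transcript gates (of the other sign and not past the test). Cdh1 in E6.75 Mesp1 cells (-0.58) was -0.64 with no replicate block (not past the test) and -0.91 to -0.39 with each library left out (changed without 2_13 and 2_14). Cdh2 in E6.75 Foxa2 cells (0.79) was 1.44 with no cell set aside (past the test). Cdh11 in E6.75 Foxa2 cells (2.14) was 1.75 with DESeq2, 2.35 with no replicate block and 2.39 with the 2-prefixed libraries (not past the test) and 1.42 to 2.32 with each library left out (changed without 1_10, 2_12, 2_13 and 2_14). Pcdh19 in E6.75 Foxa2 cells (-0.087) was 0.31 with DESeq2, 1.02 with no cell set aside, 1.015 with 2-transcript gates and 0.0026 with the 2-prefixed libraries (of the other sign and not past the test) and -2.24 to 0.63 with each library left out (changed without 1_10, 2_12 and 2_14). Cdh1 in E6.75 Mesp1 against Foxa2 (-0.36) was -2.11 thinned and -1.43 with 2-transcript gates (past the test) and -0.66 to -0.15 with each library left out (changed without 2_9). Cdh2 in E6.75 Mesp1 against Foxa2 (1.498) was 1.49 with DESeq2, 0.91 with no cell set aside, 1.603 with no replicate block and 1.41 with the 2-prefixed libraries (not past the test) and 1.07 to 1.83 with each library left out (changed without 2_12, 2_13 and 2_14). Cdh11 in E6.75 Mesp1 against Foxa2 (2.81) was 2.91 with DESeq2 (not past the test). Pcdh19 in E6.75 Mesp1 against Foxa2 (4.996) was 4.43 to 7.18 with each library left out (changed without 2_14). Cdh2 in E7.5 T-only cells (0.015) was -0.099 with DESeq2, -0.013 with no cell set aside and -0.017 with no replicate block (of the other sign and not past the test) and -0.20 to 0.40 with each library left out (changed without 11, 12, 2, 3 and 4). Pcdh19 in E7.5 T-only cells (0.71) was 1.32 thinned and 2.62 against Sox2-bearing cells (past the test). Cdh11 in E7.5 Mesp1 cells (1.07) was 1.13 with no replicate block (not past the test) and 0.95 to 1.30 with each library left out (changed without 11, 12, 6 and 7). Cdh1 in E7.5 Foxa2 cells (0.78) was 0.84 with 2-transcript gates, 0.57 against Sox2-bearing cells and 0.67 with no replicate block (not past the test) and 0.71 to 0.90 with each library left out (changed without 3). Cdh2 in E7.5 Foxa2 cells (0.91) was 0.86 with no filter, 1.72 with 2-transcript gates, 1.22 with 5 cells per class and 1.47 against Sox2-bearing cells (past the test) and 0.71 to 1.20 with each library left out (changed without 10). Cdh11 in E7.5 Foxa2 cells (-1.18) was -1.22 with no filter (past the test) and -1.86 to -0.86 with each library left out (changed without 1). Pcdh19 in E7.5 Foxa2 cells (-1.602) was -1.66 with no filter (past the test) and 0.26 against Sox2-bearing cells (of the other sign and not past the test). Cdh2 in E7.5 Mesp1 against Foxa2 (0.67) was 0.75 with no filter (past the test) and 0.46 to 0.99 with each library left out (changed without 1). Cdh1 in the interaction (-0.65) was 0.86 thinned (of the other sign and not past the test). Cdh11 in the interaction (-3.85) was -3.37 with DESeq2 (not past the test). Pcdh19 in the interaction (-0.94) was 2.01 thinned and 1.02 against Sox2-bearing cells (of the other sign and not past the test). Cdh1 in E7.5 lateral against ectoderm (-0.65) was -0.81 to -0.50 with each library left out (changed without 12). Cdh2 in E7.5 lateral against ectoderm (1.47) was 1.51 with no filter (past the test). Cdh11 in E7.5 lateral against ectoderm (2.37) was 2.28 with no replicate block (not past the test) and 2.13 to 2.71 with each library left out (changed without 3 and 4). Pcdh19 in E7.5 lateral against ectoderm (3.602) was 3.09 with DESeq2 and 3.08 with no replicate block (not past the test) and 3.17 to 4.02 with each library left out (changed without 4 and 8). Cdh1 in E7.5 paraxial against ectoderm (-0.08) was -0.20 to 0.11 with each library left out (changed without 4 and 8). Cdh2 in E7.5 paraxial against ectoderm (1.80) was 1.82 with 5 cells per class and 2.19 with no replicate block (not past the test) and 1.51 to 2.04 with each library left out (changed without 12, 1, 2, 3, 4 and 8). Pcdh19 in E7.5 paraxial against ectoderm (4.23) was 3.74 with DESeq2 (not past the test) and 3.54 to 4.79 with each library left out (changed without 4 and 8). Cdh11 in E7.5 lateral against paraxial (0.98) was 1.09 with no filter (past the test) and 0.76 to 1.33 with each library left out (changed without 3). Pcdh19 in E7.5 lateral against paraxial (-0.62) was -1.32 with 5 cells per class (past the test).

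The Cdh2 share of E6.75 T-only cells turned from 0.0936 to -0.0756 points with no cell set aside, -0.448 without cells above 3 times the median depth and -0.549 with the 2-prefixed libraries. That of E7.5 T-only cells turned to 0.191 without the deepest cells and 3.86 against Sox2-bearing cells, and that of E7.5 Foxa2 cells to 0.343 against Sox2-bearing cells. That of E7.5 Mesp1 cells was 54.4 points against Sox2-bearing cells, in too few libraries to pass the exact test (adjusted p = 0.125). Without each library in turn the share differed by -0.237 to 0.31 points for E6.75 T-only cells, -5.43 to 0.191 for E7.5 T-only cells, -3.55 to 0.0128 for E7.5 Foxa2 cells and 40.1 to 48.6 for E7.5 Mesp1 against Foxa2 cells. With cells thinned to 2000 and 2 transcripts needed, the rise in cells with Cdh2 was 3.55 points and with Cdh11 0.775, neither past the exact test. With the 2-prefixed libraries alone, the rise in cells with any Cdh2 transcript was 8.05 at that depth, also not past it. The co-detection ratio thinned to 2000 transcripts was -0.45 at E6.75 and -0.65 at E7.5, and thinned to 10000 it was -0.52 at E7.5, the last 2 past the test. At 2000 transcripts Cdh1 was in 28.9% and Cdh2 in 11.3% of E7.5 cells, so few cells per library are expected to hold both. With so few, the mean log ratio can lie below 0 for independent genes too, so no conclusion is drawn at that depth. Unthinned and without each library in turn, the co-detection ratio was -0.067 to 0.038 at E7.5.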
